A study of Homo sapiens with 2 samples.

Results

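Mitochondrial ribosomal protein genes were described in the H3K18la peak list of H1299 cells. They were taken as the protein-coding RefSeq genes (GRCh38.p14) whose symbols consist of MRPL or MRPS, a number and at most 1 letter from A to C. By this rule there were 77 genes of 19866 protein-coding genes, 49 named for the large and 28 for the small subunit, on 21 of 24 chromosomes. H1299 is an established human non-small cell lung cancer line that does not express p53. Lactylation of lysine 18 in histone H3 (H3K18la) was mapped by immunoprecipitation of its crosslinked chromatin, and the series holds 1 such library and 1 labelled input, both from H1299 cells with no treatment named. The values below come from the 1 deposited peak list, and thus describe 1 library. The deposit assigns this list to the H3K18la library, while its peak names begin with NC, a prefix without an explanation in the labels. Of 12 lung, epithelial and mesenchymal marker genes, 8 carried a peak at either end, where 59.1% of all coding genes did. The highest fold, 10.2, was that of SFTPC, but this peak lay wholly outside the gene and was shared with BMP1. Wholly outside the gene were also the peaks of KRT7 (6.97-fold) and of KRT19 (7.58-fold), the latter shared with KRT15. The peaks of NKX2-1 (3.90-fold), NAPSA (4.87-fold), VIM (8.09-fold), ZEB1 (8.11-fold) and AXL (8.94-fold) overlapped their genes. None lay at an end of SFTPB, SFTPA1, EPCAM or CDH1, the last of which held one of 3.98-fold inside the gene. The list held 28695 broad peaks with a median fold enrichment of 4.36 and a median width of 1250 bp.

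The mitochondrial ribosome translates the few messenger RNAs of the mitochondrial genome, all of which encode subunits of the respiratory chain and ATP synthase. Its RNAs come from mitochondrial DNA, whereas all of its proteins are encoded in the nucleus, made in the cytosol and imported. Some of the proteins have counterparts in bacterial ribosomes and the others arose in the mitochondrial lineage. H3K18la is a histone modification derived from lactate that is found at active promoters and enhancers.

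Promoter sequence is shown for 7 genes that span the range of the peaks: MRPS6 and MRPL40 from the high end, MRPS11 from the start pair it forms with MRPL46, MRPL52 for its repeated YY1 letters, MRPS9 with the lowest fold, and MRPS31 and MRPS21 without a peak. Each run is the 250 bases before the annotated start, 5′ to 3′ on the gene's strand, from RefSeq (GRCh38.p14). Capitals mark the letters searched on both strands, which were GGGCGG (SP family), CCGGAAG (ETS family), AANATGGCG (YY1) and CCAAT (NFY).
MRPS6, chr21:34073328-34073577, plus strand: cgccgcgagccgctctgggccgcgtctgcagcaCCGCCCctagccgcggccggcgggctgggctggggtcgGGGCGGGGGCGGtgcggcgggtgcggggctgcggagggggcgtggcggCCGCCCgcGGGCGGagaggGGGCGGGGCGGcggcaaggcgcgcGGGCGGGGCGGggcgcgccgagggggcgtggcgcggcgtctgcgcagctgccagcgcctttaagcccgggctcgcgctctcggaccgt
MRPL40, chr22:19432295-19432544, plus strand: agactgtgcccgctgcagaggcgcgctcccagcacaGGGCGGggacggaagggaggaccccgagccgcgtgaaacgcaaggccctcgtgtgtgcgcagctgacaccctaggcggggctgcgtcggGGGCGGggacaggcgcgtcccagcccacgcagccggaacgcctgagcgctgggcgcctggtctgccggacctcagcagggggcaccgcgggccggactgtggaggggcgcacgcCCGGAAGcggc
MRPS11, chr15:88467458-88467707, plus strand: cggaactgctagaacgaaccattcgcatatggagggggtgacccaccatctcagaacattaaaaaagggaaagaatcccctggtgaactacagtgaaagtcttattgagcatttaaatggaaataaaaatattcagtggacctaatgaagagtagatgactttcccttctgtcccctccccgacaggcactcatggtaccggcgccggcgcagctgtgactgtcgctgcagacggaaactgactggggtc
MRPL52, chr14:22829637-22829886, plus strand: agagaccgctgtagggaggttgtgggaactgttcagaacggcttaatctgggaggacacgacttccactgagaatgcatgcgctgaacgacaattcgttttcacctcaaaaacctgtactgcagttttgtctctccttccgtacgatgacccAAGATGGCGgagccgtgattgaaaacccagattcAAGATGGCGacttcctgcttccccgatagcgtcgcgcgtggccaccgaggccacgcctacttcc
MRPS9, chr2:105037819-105038068, plus strand: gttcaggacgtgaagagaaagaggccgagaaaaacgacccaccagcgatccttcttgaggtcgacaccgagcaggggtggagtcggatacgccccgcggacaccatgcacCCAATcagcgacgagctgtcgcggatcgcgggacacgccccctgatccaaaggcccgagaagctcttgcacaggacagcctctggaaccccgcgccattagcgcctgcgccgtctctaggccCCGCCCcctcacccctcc
MRPS31, chr13:40771191-40771440, minus strand: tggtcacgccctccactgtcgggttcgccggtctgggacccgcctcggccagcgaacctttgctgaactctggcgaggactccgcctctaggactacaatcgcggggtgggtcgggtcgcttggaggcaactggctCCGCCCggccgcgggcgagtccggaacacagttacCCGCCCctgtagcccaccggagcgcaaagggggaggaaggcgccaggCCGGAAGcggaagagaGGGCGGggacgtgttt
MRPS21, chr1:150293611-150293860, plus strand: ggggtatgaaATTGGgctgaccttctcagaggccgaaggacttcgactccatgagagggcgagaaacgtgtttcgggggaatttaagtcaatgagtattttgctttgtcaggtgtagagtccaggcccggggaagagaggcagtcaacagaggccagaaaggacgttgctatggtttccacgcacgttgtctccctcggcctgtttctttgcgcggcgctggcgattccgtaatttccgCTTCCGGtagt
The MRPS6 window held 9 matches of the SP letters, in part overlapping. MRPL52 had the YY1 letters AAGATGGCG at 98 and at 64 bases before the start. In MRPL40 the ETS letters began 11 bases before the start, as they did, on the other strand, in MRPS21. MRPS31 had them at 32 bases before the start. The MRPS11 window held none of these letters.

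At least 1 peak lay within 1000 bp of an end of 70 of the 77 genes (90.9%, exact 95% interval 82.2 to 96.3). The same held for 59.1% of all protein-coding genes. Among large subunit genes it was 45 of 49 (91.8%, 80.4 to 97.7) and among small subunit genes 25 of 28 (89.3%, 71.8 to 97.7). Genes of proteins with bacterial counterparts had a peak in 43 of 46 cases (93.5%, 82.1 to 98.6) and those of mitochondria-specific proteins in 27 of 31 (87.1%, 70.2 to 96.4). These intervals overlap, and no difference between the groups was tested. The symbols' prefix does not always give the place of the protein, since the products of MRPS18A and MRPS30 sit in the large subunit.

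**Figure D1:**
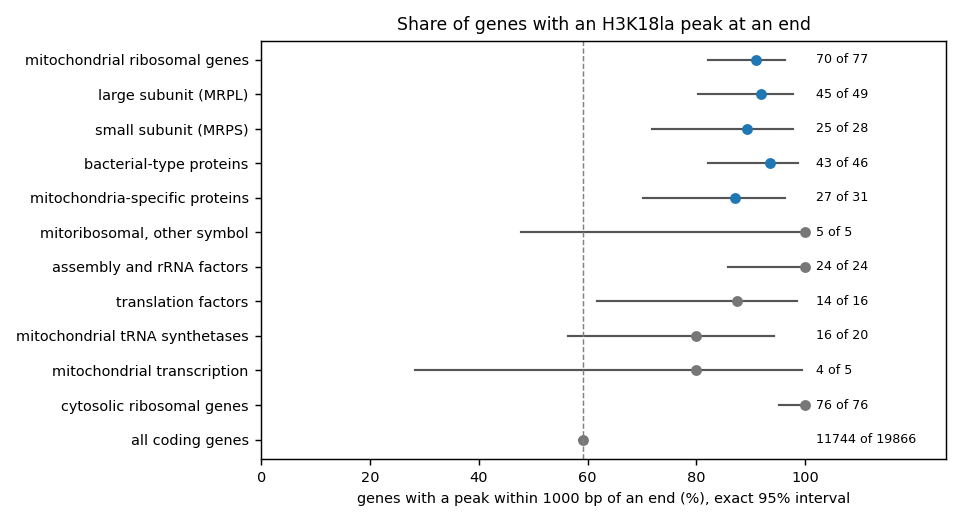
Share of genes with an H3K18la peak within 1000 bp of an end, in percent, for the mitochondrial ribosomal genes and their subgroups (blue) and for related lists and all coding genes (grey). Points give the share, lines the exact 95% interval, and the dashed line the share of all coding genes. All 5 blue points lie above the dashed line, between 87.1% and 93.5%.

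The peaks were frequent but not strong. Over the 70 genes with a peak, the fold ranged from 2.85 to 11.1 with a median of 4.71 (95% interval 4.28 to 4.89, quartiles 3.89 and 5.32). All coding genes with a peak had a median of 5.66 (quartiles 4.42 and 7.19). A fold above that median was found at 11 of the 70 genes. Against all coding genes with a peak, 3 of the 70 lay in the top 10% by fold and 8 in the lowest 10%. Peak widths had a median of 1129.5 bp (1058 to 1298), compared with 1421 bp over all coding genes with a peak. The genes themselves were shorter, with a median length of 8618 bp against 24469 bp for all coding genes. Counting only peaks with a fold at or above the median of the whole list, 43 of 77 genes had one (55.8%), against 45% of all coding genes. When the -log10 q had to reach 5, 64 of 77 had one, against 52.4%. Just inside that limit were MRPL3 (5.002) and MRPL10 (5.08), and just outside it was MRPS27 (4.98).

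**Figure D2:**
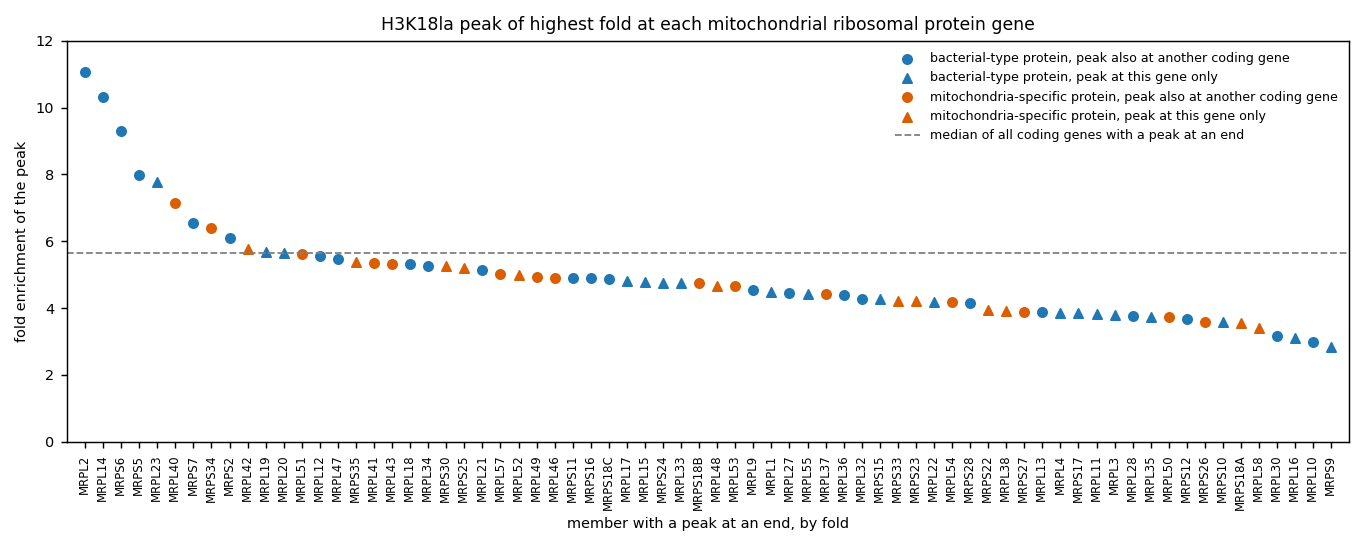
Fold enrichment of the H3K18la peak of highest fold at each of the 70 mitochondrial ribosomal genes with a peak at an end, ordered by fold. Colour gives the kind of protein, the symbol shape shows whether the peak also lay at another coding gene, and the dashed line is the median of all coding genes with a peak (5.66). MRPL2 and MRPL14 stand above 10-fold, and 11 genes lie above the line.

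The 2 highest peaks were at large subunit genes of bacterial type. MRPL2 (NCBI gene 51069, chromosome 6, 43054029 to 43059863) encodes a core protein next to the peptidyl transferase centre and had 11.1-fold in a peak of 1544 bp from 43052884 to 43054427. This peak also lay at CUL7, a cullin of a ubiquitin ligase. A second peak, of 5.66-fold, lay at the other end of MRPL2, whose strand the promoter table does not give. MRPL14 (NCBI gene 64928, chromosome 6, 44113451 to 44127452), which encodes a protein of the subunit interface, had 10.3-fold from 44126467 to 44128321, in a peak also at TMEM63B, whose outer 5′ end lay 819 bp from its own. The next was MRPS6 with 9.29-fold, followed at some distance by MRPS5.

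MRPS6 (NCBI gene 64968, chromosome 21, 34073578 to 34143030), a protein of the platform of the small subunit, shares its annotated start and strand with SLC5A3, a sodium-dependent myo-inositol transporter gene. The peak at this start ran from 34072857 to 34074709, and a second peak inside MRPS6 had 6.63-fold (34128645 to 34131192). MRPS6 also had the highest GC content among the 69 promoter windows of 300 bases, at 82%.

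MRPS5, which encodes a protein near the path of the messenger RNA, had 7.97-fold in a peak also at the 3′ end of ZNF514. MRPL23, at the exit of the nascent chain, had 7.78-fold in a peak at no other coding gene, the highest of such peaks. MRPL40 had 7.15-fold over 3203 bp, reaching the start of the histone chaperone gene HIRA 812 bp away. MRPS7, a head protein of the small subunit, had 6.55-fold with GGA3. MRPS34 had 6.38-fold over 3279 bp, in a peak that covered the whole gene and also lay at EME2, NME3 and MAPK8IP3. MRPS2 had 6.09-fold with PIERCE1, and MRPL42 completed the 10 highest with 5.77-fold in a peak of its own. Of these 10 genes, 8 had a peak that also lay at another coding gene, the exceptions being MRPL23 and MRPL42. The same held for 55.7% of the 70 genes and for 32.9% of all coding genes with a peak. The share among coding genes of like fold was not computed.

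The lowest fold was that of MRPS9, another head protein of the small subunit, with 2.85-fold over 342 bp (chromosome 2, 105038072 to 105038413). Within 3000 bp of its ends lay a further peak of 6.14-fold. MRPL10, a stalk protein gene, had 2.99-fold in a peak also at OSBPL7, and this peak lay outside the gene. Its other peak, at the end of higher coordinate, had 2.76-fold. MRPL16, whose product lies near the transfer RNA sites, had 3.12-fold, and MRPL30 had 3.16-fold in a peak also at the start of MITD1 on the other strand. MRPL58, a peptidyl-tRNA hydrolase that rescues stalled ribosomes and is built into the large subunit, had 3.40-fold. These 5 values lie within the lowest 10% of all coding genes with a peak.

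Width and fold did not rank the genes alike. The widest peak lay at MRPS18B, with 6308 bp and 4.74-fold, and extended over the start of PPP1R10, a regulatory subunit gene of protein phosphatase 1. Less than 50% of this peak, and not its midpoint, lay in the window of 1000 bp, so that under those rules MRPS18B had no peak. MRPS34 and MRPL40 followed with the widths given above. Next were MRPL36 with 2600 bp (4.38-fold), whose outer 5′ end faces the complex I gene NDUFS6, and MRPL57 with 2421 bp (5.03-fold), which faces the kinetochore gene SKA3. At 4 of the 70 genes, namely MRPL41, MRPL53, MRPS34 and MRPL51, the peak was wider than the gene. These genes are short, at 677 to 1377 bp, and the share over all coding genes was not computed.

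Where the strand was known, the peaks lay at the start of the gene. A peak within 1000 bp of the outer 5′ end was found at 62 of 69 genes (89.9%, 80.2 to 95.8), against 59.5% of all coding genes with a known strand. A peak lay at the 3′ end of 6 of 69 genes, against 7.62% of coding genes, and none of the 69 had a peak at the 3′ end only, against 1.56% of coding genes. In 5 of the 6, namely MRPS34, MRPL51, MRPL41, MRPL53 and MRPL36, the same peak lay within 1000 bp of both ends. This was 7.25% of the 69 genes (2.39 to 16.1), against 1.53% of coding genes. The sixth was MRPL34, with 5.27-fold at its start, shared with ABHD8, and 4.68-fold at its 3′ end. In MRPL41 (677 bp), MRPL53 (699 bp), MRPS34 (1240 bp) and MRPL51 (1377 bp) the windows of the 2 ends overlap. The comparison with coding genes was not matched for gene length. Cytosolic ribosomal genes, also short (median 4905 bp), had the same peak at both ends in 4 of 61 cases (6.56%).

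With every annotated start counted instead of the outer end, 64 of 69 genes had a peak (92.8%, 83.9 to 97.6), against 62.1% of coding genes. The 2 genes added were MRPL44 and MRPL24, whose RefSeq gene extends beyond the annotated start. MRPL44 had 3.64-fold from 223956986 to 223957908 on chromosome 2, across its start at 223957463. MRPL24 had 2.61-fold over 320 bp, beginning 151 bp downstream of its start at 156741088 on chromosome 1, with a -log10 q of 2.07.

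Of these 64 peaks, 52 spanned the start (81.3%), 11 lay wholly downstream and 1 wholly upstream. Over all coding genes the shares were 85.8%, 10.2% and 4.01%. The peaks typically lay on both sides of the start, the median edges of all 64 being at -614 and 558.5 bp relative to the start. The 11 downstream peaks were narrow, with a median of 376 bp and 3.95-fold, compared with 1287.5 bp and 4.75-fold for the spanning ones. All coding genes showed the same order, with 572 bp and 4.49-fold downstream and 1522 bp and 5.84-fold spanning. The 11 were MRPL3, MRPL16, MRPL17, MRPL22, MRPL24, MRPL37, MRPL43, MRPS9, MRPS17, MRPS22 and MRPS25. In 10 of them the peak began within 151 bp of the start, and in MRPL16 it began 231 bp from it. The upstream peak was that of MRPL54, from -1457 to -657 bp relative to its start, and it crossed the start of APBA3. A second peak of MRPL54, of 3.64-fold, began 34 bp downstream of the start.

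**Figure D3:**
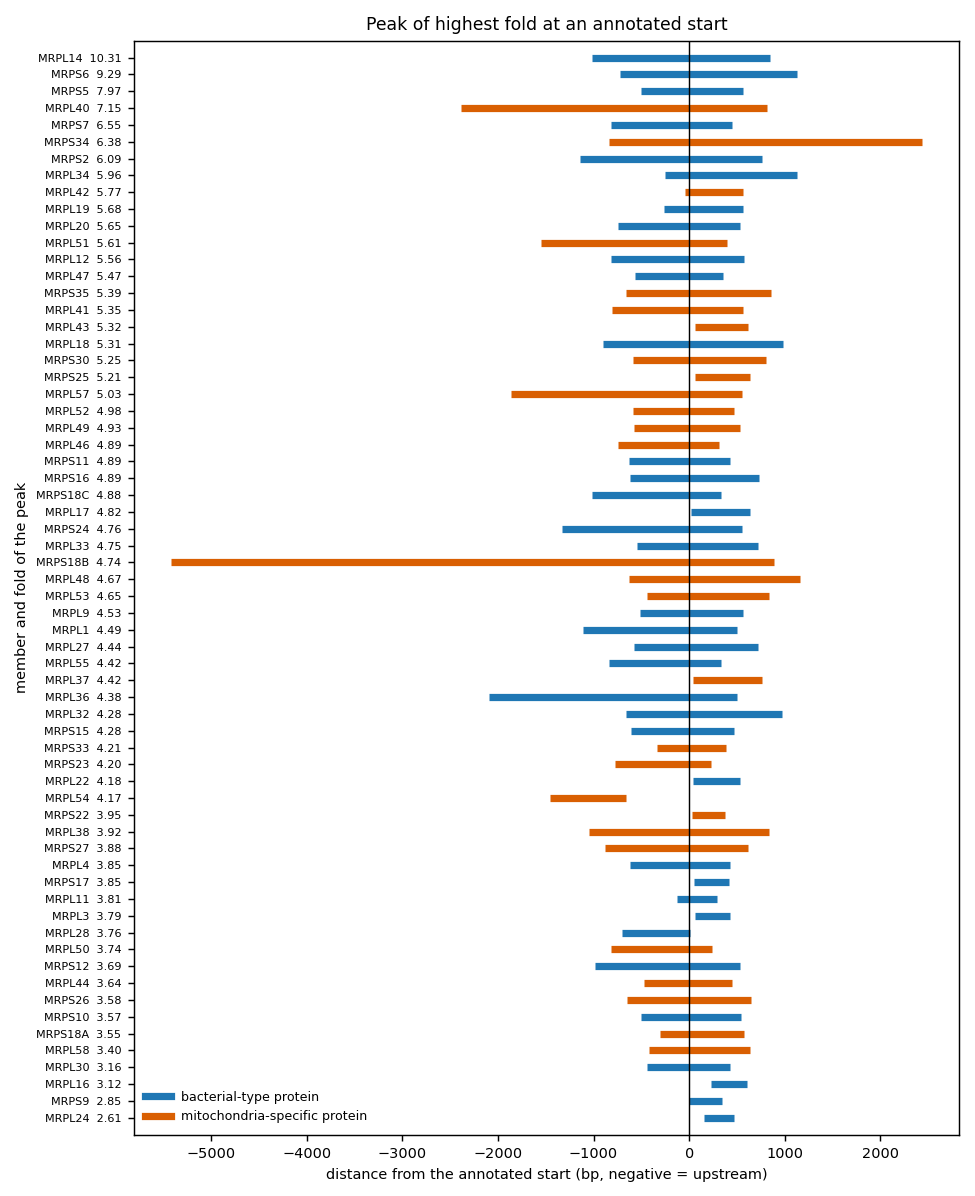
Extent of the peak of highest fold at an annotated start of 64 mitochondrial ribosomal genes, in bp from that start along the gene's strand, ordered by fold (printed beside each symbol). Blue bars are bacterial-type and orange bars mitochondria-specific proteins, and the vertical line is the start. Most bars cross the line, 11 short bars lie to its right, and the bar of MRPS18B reaches -5416 bp.

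Peaks inside the gene but away from both ends lay at 9 of 77 genes (11.7%, 5.49 to 21.0), against 24.8% of all coding genes. Besides MRPL44, MRPL24 and MRPS6 these were MRPL34 (5.96-fold, across a further annotated start at 17302865 on chromosome 19 and across the start of ABHD8 at 17303425), MRPS27 (2 peaks, up to 5.32-fold), MRPL1 (4.32-fold), MRPL14 (3.65-fold), MRPL48 (3.32-fold) and MRPS28 (2 peaks, up to 2.91-fold). In MRPL34 and MRPS27 the peak inside was higher than the one at the end. A peak of this kind needs gene sequence more than 1000 bp from both ends. The median gene length was 8618 bp in the group and 24469 bp over all coding genes, and the shares were not matched for length. Of the cytosolic ribosomal genes (median 4905 bp), 2 of 76 had such a peak (2.63%).

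No peak lay at an end of MRPL24, MRPL39, MRPL44, MRPL45, MRPS14, MRPS21 and MRPS31. Apart from MRPL24 and MRPL44, which had the peaks at internal starts given above, these genes were far from any peak. For MRPL45, which tethers the exit tunnel to the inner membrane, the nearest peak was 9882 bp from an end (4.35-fold). It was 11987 bp away for MRPL39 (3.14-fold), 11997 bp for MRPS21 (3.76-fold), 12096 bp for MRPS14 (6.53-fold) and 17857 bp for MRPS31 (7.52-fold). The window thus left no borderline case among these 5 genes, since a window of 3000 bp would not have reached a peak. Just inside the window of 1000 bp was MRPL10, whose peak of highest fold ended at 47822425, before the gene's lower end at 47823272. Just outside it was MRPL24, whose peak lay 1779 bp from the nearer end.

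The promoters of these 5 genes were rich in CpG. Their windows of 300 bases held a median of 28 CpG (21 to 31) and a GC content of 64%, compared with 24 CpG in the 64 genes with a peak at an annotated start. Over all coding genes the medians were 27 CpG with such a peak and 7 without. The lowest counts in the group were those of MRPL48 (7) and MRPL11 (8), which both had a peak.

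Many of the genes have pseudogenes. Among 100 annotated pseudogenes of the group, an end of 3 carried a peak (3%, 0.623 to 8.52), and of all pseudogenes 4.1% did so. They were MRPS31P5 (3.19-fold), MRPL45P2 (4.24-fold) and MRPL15P1 (4.50-fold, also at MESP1). MRPS31 and MRPL45 themselves had no peak, and MRPS21, also without one, has the most pseudogenes of the group (9). The genes next in number, MRPL57 (8) and MRPL42, MRPS17 and MRPS18C (6 each), all had a peak at an end. The other genes without a peak at an end, MRPL24, MRPL39, MRPL44 and MRPS14, have none of the 100 pseudogenes. The copies of MRPS21 are short, at 145 to 678 bp, whereas MRPS31P5 has 26759 bp and MRPL45P2 42394 bp. Reads shared with such copies may not be placed uniquely. The values at genes with pseudogenes, with or without a peak, and at the pseudogenes are therefore uncertain. Whether this bears on the missing peaks of MRPS31, MRPL45 and MRPS21 was not tested.

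Many of the peaks were shared with a neighbour. In 39 of the 70 genes (55.7%, 43.3 to 67.6) the peak also lay at an end of another coding gene, against 32.9% of all coding genes with a peak. At the neighbour it was at the start in 25 cases, at the 3′ end only in 7, and in 7 the neighbour's strand was not known. For such peaks the list cannot tell which of the genes the enrichment belongs to. Among genes with no other coding end within 5000 bp, 17 of 21 had a peak (81.0%, 58.1 to 94.6), against 47.7% of such coding genes, with a median of 4.21-fold against 5.60-fold.

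Many of the genes formed head-to-head pairs with a neighbour. Measured between outer 5′ ends, a coding gene on the other strand began within 1000 bp in 23 of 69 genes (33.3%, 22.4 to 45.7), against 13.6% of coding genes. Neighbours without a known strand could not be counted, so both shares are lower bounds and the genes outside the pairs may include some that are paired. Such neighbours were TWNK, 46 bp from the start of MRPL43, and NDUFB5, 148 bp from that of MRPL47. All 23 had a peak at the start, as did 91.2% of head-to-head coding genes. Among the other 46 genes, 39 had one (84.8%, 71.1 to 93.7), against 54.5% of coding genes not counted as head to head. The median fold was 4.88 in the head-to-head genes (4.38 to 5.31) and 4.65 in the others (3.95 to 5.21), with overlapping intervals. Widths were 1497 bp (1070 to 1901) and 1049 bp (725 to 1274), whose intervals also overlap.

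MRPL46 and MRPS11, of the large and the small subunit, faced each other with starts 320 bp apart and shared 1 peak of 4.89-fold (chromosome 15, 88467074 to 88468131, 1058 bp). The 70 genes therefore had 69 distinct peaks of highest fold. Other partners also serve mitochondria. MRPS12 faced the mitochondrial seryl-tRNA synthetase gene SARS2 at 181 bp (3.69-fold). MRPS27 faced PTCD2, a gene of mitochondrial RNA processing, at 133 bp (3.88-fold), and the MRPL36 peak lay at NDUFS6. The peak of MRPL43 also lay at TWNK, the mitochondrial DNA helicase gene (5.32-fold), and that of MRPL47 at NDUFB5, a complex I gene (5.47-fold). MRPL49 faced FAU, which encodes a cytosolic ribosomal protein, at 49 bp (4.93-fold). Further partners were the chaperonin gene TCP1 with MRPL18 (5.31-fold) and the proteasome gene PSMA2 with MRPL32 (4.28-fold). These partners were picked from the shared peaks after their names were seen.

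By place in the ribosome, the 5 genes of the stalk and its base, where translation factors bind, all had a peak, where 59.1% of all coding genes had one. MRPL12 had 5.56-fold, MRPL53 4.65-fold, MRPL54 4.17-fold, MRPL11 3.81-fold and MRPL10 2.99-fold. All 5 values were below the median of coding genes with a peak. Those of MRPL54 and MRPL10 come from peaks wholly outside these genes, whose other peaks had 3.64-fold and 2.76-fold. At the exit tunnel 4 of 6 genes had a peak at an end, namely MRPL23 (7.78-fold), MRPL47 (5.47-fold), MRPL17 (4.82-fold) and MRPL22 (4.18-fold), without MRPL24 and MRPL45. This share (66.7%, 22.3 to 95.7) is near that of all coding genes. Both genes of the decoding centre had one, MRPS5 with 7.97-fold and MRPS12 with 3.69-fold. Groups this small do not allow an order between them.

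Fold and significance diverged at some genes. For each peak the -log10 q was set beside the median -log10 q of all peaks whose fold was within 10% of its own. MRPS12 had 9.77 against 4.15, MRPL10 5.08 against 2.41 and MRPS23 12.5 against 6.03. MRPL51 had 23.7 against 12.4 and MRPL2 60.3 against 41.6. In the other direction MRPL36 had 5.55 against 6.76 and MRPL17 6.40 against 8.73.

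**Figure D4:**
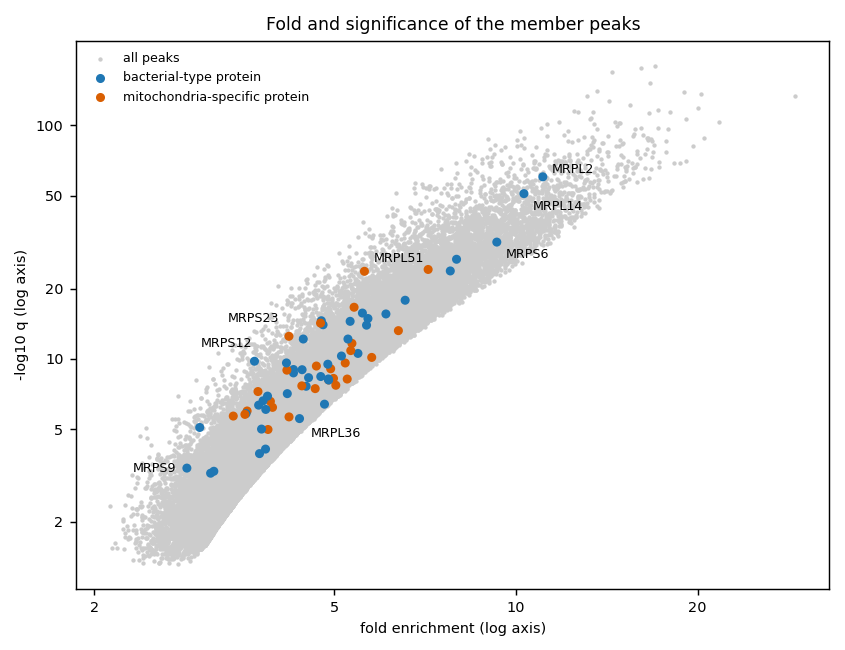
Fold enrichment and -log10 q, both on log axes, of all 28695 peaks (grey) and of the peaks of highest fold at 70 mitochondrial ribosomal genes (blue bacterial-type, orange mitochondria-specific). MRPL2 lies at 11.1-fold and 60.3, and MRPS12, MRPS23 and MRPL51 lie above most peaks of like fold.

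Sequence letters in the 69 promoter windows (250 bases before to 50 after the start) were compared with those of 15843 coding genes. The ETS letters CCGGAAG, bound by factors such as GABPA, occurred in 29 of 69 windows (42.0%, 30.2 to 54.5). They occurred in 14.2% of all coding windows, in 20.03% of those with a peak at an annotated start and in 4.53% of those without. The YY1 letters AANATGGCG occurred in 18 of 69 (26.1%, 16.3 to 38.1), against 4.78% of all coding windows, 7.14% with a peak and 0.900% without. Cytosolic ribosomal protein genes had 34.4% and 13.1%. The SP letters GGGCGG occurred in 59.4% of the windows, near the 58.3% of all coding windows and below the 72.6% of those with a peak. CCAAT occurred in 29.0%, against 36.4% of all coding windows. The remaining motifs were rare, with the palindromic NRF1 motif in 1 window (MRPL17), the ZNF143 motif in 2, TATAAA in 2 and a palindrome centred on CGCG in 1. As shares these were 1.45%, 2.90%, 2.90% and 1.45%, against 1.77%, 1.58%, 9.75% and 0.669% of all coding windows. All motifs were searched on both strands, and YY1 and ETS letters can overlap other motifs. A match describes the letters only.

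The genes with ETS or YY1 letters did not have the higher median fold. This was taken over the peaks of highest fold at the gene ends, in the 62 genes with a peak at the outer 5′ end, without MRPL24 and MRPL44. The median fold was 4.21 in the 27 of them with ETS letters and 4.89 in the 35 without. It was 4.42 in the 17 with YY1 letters and 4.88 in the 45 without. Among genes with no peak, ETS letters were present in MRPS21 and MRPS31 and YY1 letters in MRPS14.

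**Figure D5:**
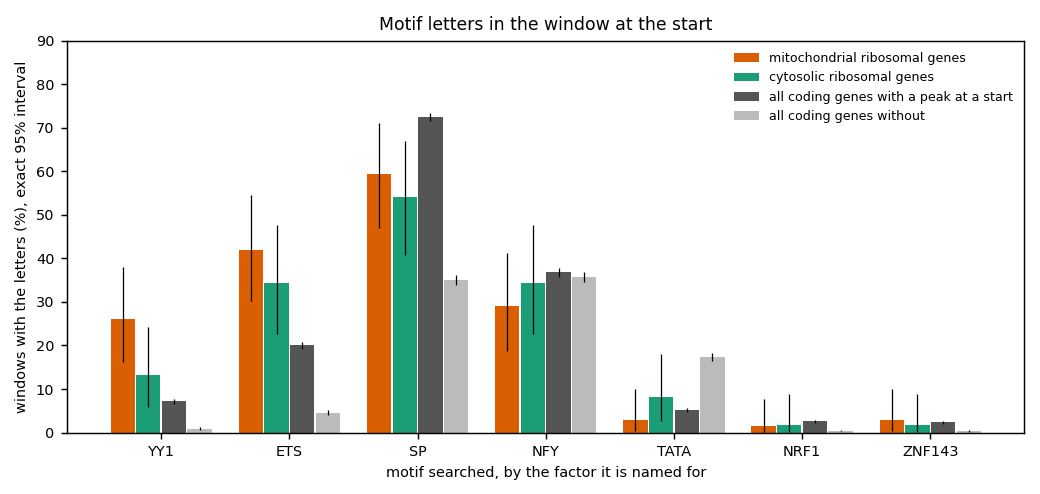
Share of promoter windows with each motif's letters, in percent, for mitochondrial ribosomal genes (orange), cytosolic ribosomal genes (green) and all coding genes with (dark grey) and without (light grey) a peak at an annotated start. Bars give the share and lines the exact 95% interval. The orange bars for YY1 (26.1%) and ETS (42.0%) stand above both grey bars, and the orange bar for SP (59.4%) lies between them.

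Other genes of mitochondrial translation and of its transcription were counted in the same way. All 5 mitoribosomal protein genes with other symbols had one, led by GADD45GIP1 (6.72-fold) and DAP3 (6.66-fold). All 24 genes of ribosome assembly and ribosomal RNA modification had one (85.8 to 100%), led by RCC1L (8.79-fold) and NGRN (7.92-fold), with a median of 5.19-fold. Translation factor genes had one in 14 of 16 cases, led by MTRF1 (6.57-fold) and MTFMT (5.62-fold), and the elongation factor genes TSFM and GFM1 had none. Mitochondrial aminoacyl-tRNA synthesis had 16 of 20, led by EARS2 (6.92-fold) and AARS2 (6.83-fold). LARS2, PARS2, GATB and FARS2 had none at their ends, and FARS2 held one of 5.95-fold inside the gene. Mitochondrial transcription had 4 of 5, led by POLRMT (5.62-fold) and TFAM (4.18-fold), and MTERF1 had none. The counts of these small lists lie above the 59.1% of all coding genes, with intervals that include it for the mitoribosomal genes of other symbol, aminoacyl-tRNA synthesis and transcription. Some of these peaks also lay at another coding gene, such as those of NGRN, DAP3, MTRF1 and EARS2. In the assembly list this held for 14 of 24 (58.3%), against 32.9% of all coding genes with a peak. The peaks of METTL17, RBFA and RPUSD4 in that list lay wholly outside the gene.

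Cytosolic ribosomal protein genes, the most similar set, had a peak in 76 of 76 cases (95.3 to 100%). Their median fold was 5.55 (5.05 to 5.97) and their median width 1395 bp. For the mitochondrial ribosomal genes both were lower, at 4.71 (4.28 to 4.89) and 1129.5 bp (1058 to 1298), where the intervals of the fold do not overlap and those of the width (1259 to 1532 for the cytosolic genes) do. Sharing with another coding gene was seen in 29 of the 76 (38.2%, 27.2 to 50.02), against 55.7% (43.3 to 67.6), with overlapping intervals. The difference between the sets was not tested, since it rests on 1 library.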

How the data were processed

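H3K18la ChIP-seq was analysed in 1 immunoprecipitated library, whose control is labelled input. Per the submitters' processing notes, the tools were bcl2fastq 2.17, cutadapt 1.18, Trimmomatic 0.38, Bowtie2 2.3.4.1, MACS2 (listed as 2.1.2 and as 2.1.0), Picard and ChIPseeker, with hg38 as the genome. The caller's settings are not given in the sources used here. The series' design text speaks of an IgG group, and which of them MACS2 compared the H3K18la library with is not given in the sources used here. The deposited list gives for each peak a fold enrichment, which is a ratio over the caller's background, a significance as -log10 p and -log10 q, and a score. The deposited score was not used further, since in 99.98% of peaks it is -log10 q multiplied by 10 and cut to a whole number.

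Peaks were joined to the NCBI RefSeq gene table of GRCh38.p14, in which 831 of 59792 entries were left out. These lay outside the 24 chromosomes used, or in a later run of coordinates of a chromosome, which was taken to belong to other sequences. The join used windows of 1000 bp on either side of both gene ends and an overlap of at least 1 bp, and took the peak of highest fold. Strand and annotated starts came from RefSeq promoter windows, which cover 69 of the 77 genes and 15843 of the 19866 coding genes. For letters and base composition 1 window a gene was used, at the annotated start nearest the outer 5′ end. No exon table was used, so exonic, intronic and untranslated positions are not given. Shares carry exact (Clopper-Pearson) 95% intervals and medians carry 95% intervals from order statistics. These cover counting error or the spread over genes only. The depth of the libraries is unknown, with 1 library in each group there is no replicate check, and no p-values are given. How reads of near-identical gene copies were placed is not given in the sources used here. The work used Python 3.11.15, pandas 2.3.3, numpy 2.4.6, scipy 1.17.1 and matplotlib 3.10.9, and the join was tested on simulated data.

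The genes and the lists were chosen with earlier results of these data known. Genes named were those without a peak at an end, those with peaks at both ends or in the body, the 10 of highest and 5 of lowest fold, the 5 with the widest peak, those nearest the thresholds, the neighbours that share these peaks, and the groups at the stalk, exit tunnel and decoding centre. From each further list the 2 of highest fold and all without a peak were named. Other genes named, in the accounts of position, sharing, significance and motif letters, were chosen after their values were seen.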

Additional observations from a re-analysis of the deposited data

How the results depend on the processing

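The share of the 77 genes with a peak stayed above that of all coding genes, and the median fold below theirs, under all 10 alternatives run. For sharing and width the value over all coding genes was not recomputed. The alternatives were windows of 500 and 3000 bp, the midpoint or 50% of the peak in the window, a -log10 q of at least 5, a fold at or above the median of all peaks, the start only, isolated genes only, the widest peak, and any annotated start, which was chosen after seeing the data. Where the -log10 q had to reach 5, the order of the 2 kinds of protein turned. It was 38 of 46 bacterial-type and 26 of 31 mitochondria-specific genes, against 52.4% of all coding genes. With a fold at or above the median of all peaks, 43 of the 77 genes had a peak (55.8%), against 45.0% of all coding genes. By subunit these were 30 of 49 large (61.2%) and 13 of 28 small subunit genes (46.4%), the latter near the share of all coding genes. By kind they were 26 of 46 bacterial-type (56.5%) and 17 of 31 mitochondria-specific genes (54.8%). The median fold was 5.21, against 6.30 over all coding genes with such a peak. Among the 21 genes with no other coding end within 5000 bp, 17 had a peak, against 47.7% of such coding genes. These were 10 of 12 large and 7 of 9 small subunit genes, or 10 of 11 bacterial-type and 7 of 10 mitochondria-specific genes. Their median fold was 4.21, their median width was 1045 bp, and by construction 0 of their peaks were shared. With starts only, 25 of 62 peaks were shared with another coding gene, taken at its start or, where its strand was unknown, its end of higher coordinate. With any annotated start, 25 of 64 peaks were shared with another coding start. Of 150 fold values recomputed for 18 named genes, 146 stayed the same and 4 changed, namely MRPL10 (2.76-fold with a window of 500 bp, by midpoint and by 50% of the peak) and MRPS9 (6.14-fold with 3000 bp, then above the median of coding genes). A further 10 had no peak under the alternative, of MRPS18B by midpoint and by 50%, and of the genes of lowest fold under the stricter peak thresholds. MRPL24 had one of 2.61-fold with 3000 bp. The fold cut removes genes by construction, and for the other values given here the cause was not tested. No paired analysis was possible because there is 1 immunoprecipitated library. Leaving out a replicate could not be done for the same reason. With the depth unknown, a missing peak cannot be told apart from a signal under the caller's threshold.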
